A study of Mus musculus with 5 samples.

Results

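The enzymes and transporters that build, sulphate and break down glycosaminoglycans were described in mouse knee joints with and without the proteoglycans epiphycan and biglycan. The members were 39 genes listed by their known place in the pathway. No measured value entered the list, but earlier results of these data were known when it was chosen. A gene was measured where a probe set of the array carried its symbol alone in the platform annotation, and its brightest probe set by mean level over all 5 arrays stood for it. That gave 32 genes of 12393 with a probe set on the arrays, with 54 probe sets among them. Of the 32, 24 lay above an intensity filter and entered the test with 7436 genes in all, and 8 lay below it and are described by their signals. Xylt1, Chsy1, Dse, Ust, Ndst1, Sulf1 and Arsb were not analysed here. By step, the tested genes were 2 of 5 listed for the linker, 6 of 6 for precursor and sulphate supply, 4 of 10 for chondroitin and dermatan sulphate, 1 of 2 for keratan sulphate, 9 of 12 for heparan sulphate and 2 of 4 for lysosomal breakdown.

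The mice were males of a C57/Bl6:129 hybrid background, 3 months old, and RNA came from their entire knee (tibio-femoral) joints, 6 joints of 3 mice to a pool and 1 pool to an array. There were 2 wildtype pools and 3 pools from animals null for both Epyc, which encodes epiphycan, and Bgn, which encodes biglycan. The arrays came in 2 value tables with the same probe sets. The table called array type A held wildtype pool 2 and double-null pool 3, and the table called array type B held wildtype pool 1 and double-null pools 1 and 2. Each table thus had a single wildtype pool, so a difference between the tables and a difference between the wildtype pools cannot be told apart. In whole joints, fewer cells of a type and less RNA per cell cannot be told apart either.

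Glycosaminoglycans are long sugar chains carried by proteoglycans. A short linker is built on a serine of the core protein, and the next sugar added decides whether a chondroitin or a heparan chain follows. Sulphotransferases in the Golgi then decorate the chain, using sulphate from the activated donor PAPS, and part of the glucuronic acid is turned into iduronic acid, which makes chondroitin sulphate into dermatan sulphate. Cartilage is rich in sulphated chondroitin chains, and loss of function in several of these genes, among them the sulphate transporter gene Slc26a2, causes skeletal dysplasia in humans. Biglycan and epiphycan themselves carry chondroitin or dermatan sulphate chains, so the double-null joints lacked 2 of the core proteins on which these enzymes act.

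The arrays matched their labels at the targeted genes. The signal of Bgn was 3413 and 2003 in wildtype pools 1 and 2 and 204, 224 and 206 in double-null pools 1 to 3, and Bgn fell by 3.48 on the log2 scale (limma adjusted p = 1.7e-06). Its 2 other probe sets above the filter were at -6.00 and -5.42, with double-null signals from 7.05 to 67.7. Epyc read 91.2 and 78.8 against 10.8, 3.38 and 1.29, and lay below the filter. The cartilage marker Col2a1 and the connective tissue marker Col1a1 were present on every array, from 3731 to 10257 and from 11160 to 18916. The marker lists differed between pools. The summed signal of 12 measured chondrocyte markers (of 13 listed) reached 16792 in wildtype pool 1 against 8354 in wildtype pool 2, and lay between 9228 and 11074 in the double-null pools. That of 15 fibroblast and tendon markers ran from 35313 to 54048 in wildtype and from 49742 to 60588 in double-null pools. Of the 14 tested, 12 had positive differences, and the collagen genes Col3a1 and Col6a1 and the lumican gene Lum were called. Values were negative for 8 of 9 chondrocyte markers tested (median -0.29), 6 of 6 osteoclast markers (median -0.27) and 8 of 9 neutrophil markers (median -0.090), with 0 called. The summed signal of 12 muscle markers ran from 60660 to 76148 and from 37186 to 90724. Some listed markers were dim, among them Matn1 at 8.89 to 42.1 and Scx at 3.86 to 44.6. The part of the marker differences in the results below was not tested.

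None of the glycosaminoglycan enzymes tested passed the test between the groups. A difference here is the double-null level minus the wildtype level, in log2(signal + 32), from a fit that also held the array type. Adding 32 makes changes of dim genes look smaller than they are. By limma with Benjamini-Hochberg adjustment over all 7436 genes, 0 of the 24 passed an adjusted p of 0.05, where 9 genes in all did (0.121%), and the smallest adjusted p of a member was 0.77. At an unadjusted p under 0.05 there was 1 member, Csgalnact1, on the higher side, where 3.52% of all genes were. The 9 called genes differed by 0.83 to 4.18 on the log2 scale without regard to sign, and no tested enzyme differed by more than 0.49. The median of the 24 was 0.038, beside -0.011 over all genes, with 14 positive and 10 negative values. The absolute differences had a median of 0.20, beside 0.13 over all genes.

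The precision of the differences is given by their standard errors and intervals. Standard errors of the 24 ran from 0.16 to 0.28 (median 0.19, as over all genes). They were moderated by limma, with 2 residual and 9.8 prior degrees of freedom. They thus lean on the spread over all genes more than on that of each gene. On the log2 scale with its added constant, the 95% interval of each of the 24 lay inside a doubling and a halving. It did so for 96.8% of all genes. The interval lay inside a 1.5-fold change either way for 11 of the 24, or 45.8%, beside 58.4% of all genes. The upper limit of Csgalnact2, 0.997, was just under a doubling. Its fitted difference was 0.49, and 0.52 with an added constant of 1. These counts thus hold for the added constant used, and intervals with other constants are not given. The intervals are not adjusted for the number of genes. An exact permutation test of a single gene could not go below p = 0.1 with 2 pools against 3.

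**Figure D1:**
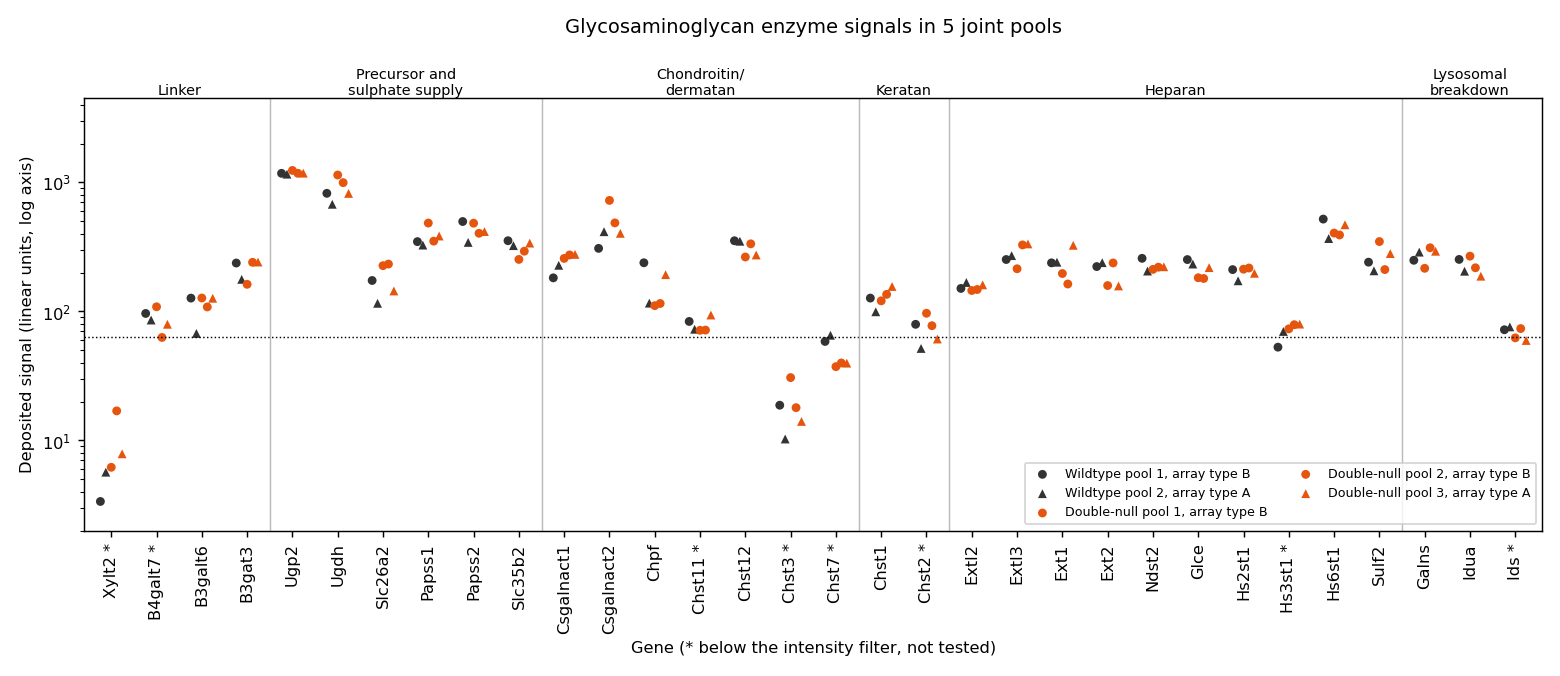
Deposited signal (vertical, log axis) of the 32 measured genes (horizontal, by step) in each of the 5 pools. Black is wildtype, orange double-null, circles array type B and triangles array type A. The dotted line is the highest Bacillus control signal over the 5 arrays, 63.5, which was read in double-null pool 2. Wildtype and double-null points of most genes overlap. In these deposited signals all double-null points lie higher for Xylt2, Ugp2, Papss1, Csgalnact1 and Hs3st1, and lower for Chst12, Chst7 and Glce. After normalisation, the groups were apart for 9.45% (higher) and 10.2% (lower) of all genes tested. The share over all genes in the deposited signals was not computed.

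The supply of precursors and sulphate was the only step with all its listed genes tested. Of its 6 values 5 were positive, beside 47.9% over all genes, with a median of 0.12. The 2 tables gave opposite signs for 3 of the 6 (Ugp2, Papss2 and Slc35b2), beside 52.6% of all genes. Ugp2, which makes UDP-glucose, read 1176 and 1159 in the wildtype pools and 1239, 1178 and 1180 in the double-null pools. Its log2 fold change was 0.0060 ± 0.16 (SE), with a 95% interval from -0.35 to 0.36, so the groups were close on this probe set. The 4 other probe sets of Ugp2 ranged from -0.044 to 0.32. Ugdh, the dehydrogenase that oxidises UDP-glucose to UDP-glucuronic acid, a building block of both chondroitin and heparan chains, read 823 and 677 in wildtype and 1142, 996 and 822 in double-null pools. Double-null pools 1 and 2 were above both wildtype pools, and pool 3 was level with wildtype pool 1. The fitted difference of Ugdh was 0.30 (interval -0.066 to 0.66, adjusted p = 0.85).

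Sulphate enters the cell through transporters such as the product of Slc26a2. Slc26a2 read 174 and 116 in wildtype and 226, 233 and 144 in double-null pools. The groups overlapped through pool 3, and the difference was 0.33 (interval -0.062 to 0.72, adjusted p = 0.85), with 0.19 on a second probe set. Papss1 and Papss2 encode the PAPS synthases, and loss of Papss2 disturbs cartilage and bone growth in mice and humans. Papss1 read 348 and 327 against 484, 351 and 384. Every double-null pool lay above both wildtype pools, pool 2 by a small margin, at a fitted 0.23 ± 0.19. Papss2 read 420 ± 109.5 in wildtype (mean ± SD, n = 2) and 434 ± 42.8 in double-null pools (n = 3), at 0.020 ± 0.19. The other probe sets of Papss2 ranged from -0.39 to 0.051, and the mean over all its probe sets gave -0.088. Slc35b2, which carries PAPS into the Golgi, read 339 ± 21.1 and 295 ± 42.8, at -0.15 ± 0.18.

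The linker step was measured through few genes. B3galt6, which adds the second galactose of the linker, read 127 and 67.6 in wildtype and 127, 108 and 127 in double-null pools. Only wildtype pool 2 was low, and the fitted difference was 0.27 ± 0.22. B3gat3, which adds the glucuronic acid that completes the linker, read 207 ± 42.4 and 215 ± 45.4, at 0.065 ± 0.21. A second probe set of B3gat3, below the filter, was at 0.41, and the mean over both gave 0.24. B3galt6 and B3gat3 were above 0 on array type A (0.65 and 0.39) and below it on array type B (-0.013 and -0.18). B4galt7, which adds the first galactose, lay below the filter at 91.2 ± 7.55 and 83.7 ± 23.2, and in double-null pool 2 its 62.9 was under the highest Bacillus control, 63.5. Xylt2, a xylosyltransferase that starts the linker, read between 3.37 and 17.0, under the highest Bacillus control on every array, so no difference could be read from it.

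Chondroitin synthesis held the members with the highest positive fitted differences. Csgalnact1 and Csgalnact2 encode the transferases that add the first N-acetylgalactosamine and so commit a linker to chondroitin. Csgalnact1 read 182 and 228 in wildtype pools 1 and 2 and 258, 274 and 277 in double-null pools 1 to 3. Every double-null pool lay above both wildtype pools, and the double-null values were close together. The fitted difference was 0.41 ± 0.17, 1.32-fold, with an interval from 0.024 to 0.79 (limma unadjusted p = 0.039, adjusted p = 0.77), or 0.26 in the type A table and 0.51 in the type B table. Its second probe set, below the filter at 58.6 ± 7.95 and 63.6 ± 8.60, was at 0.11. Csgalnact2 read 308 and 415 in wildtype and 726, 486 and 403 in double-null pools. Its groups overlapped, since double-null pool 3 read less than wildtype pool 2. The fitted difference of 0.49 ± 0.23 (interval -0.027 to 0.997, adjusted p = 0.82) came from array type B, at 0.87, and was -0.030 on array type A. Without double-null pool 1 or other single pools, neither gene passed the threshold.

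Chpf, which encodes a partner of the chondroitin polymerase, and Chst12, which sulphates N-acetylgalactosamine, had negative values. Chpf read 238 and 116 in wildtype and 111, 115 and 193 in double-null pools. Wildtype pool 1 and double-null pool 3 were high and the other 3 pools were alike. The fitted difference of -0.22 ± 0.28 joined 0.61 in the type A table with -0.84 in the type B table. The chondrocyte marker list had the same pattern over tables, its median being 0.17 in the type A table and -0.54 in the type B table. So had the lists for B cells (0.080 and -0.42), muscle (0.099 and -0.25), endothelium (0.11 and -0.091) and macrophages (0.033 and -0.060), and the part of these in the value of Chpf was not tested. Chst12 read 353 and 350 in wildtype and 264, 334 and 274 in double-null pools. Every double-null pool lay below both wildtype pools, at -0.26 ± 0.18 (interval -0.65 to 0.13, adjusted p = 0.91); it was -0.33 in type A and -0.21 in type B.

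Other sulphotransferases of chondroitin lay below the filter. Chst11, the partner of Chst12 in this sulphation and needed for cartilage growth plates in mice, read 78.3 ± 7.69 and 79.0 ± 12.8. Chst7, which encodes a sulphotransferase acting on another position of the same sugar, read 58.6 and 65.4 in wildtype and 37.4, 39.9 and 39.8 in double-null pools. Its groups did not overlap, and in double-null pool 2 it read less than the highest Bacillus control of that array, 63.5. In a fit without the filter, over 12393 genes, Chst7 was at -0.35 ± 0.19 (limma unadjusted p = 0.11, adjusted p = 0.87). Chst3, which acts like Chst7, read from 10.3 to 30.7, under the highest Bacillus control on every array. In keratan sulphate synthesis, Chst1, which sulphates galactose, read 113 ± 19.5 and 138 ± 17.7, at 0.26 ± 0.20. Its groups were apart after normalisation and overlapped in the deposited signals. Chst2, which sulphates N-acetylglucosamine, lay below the filter at 65.6 ± 19.7 and 78.5 ± 17.9.

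**Figure D2:**
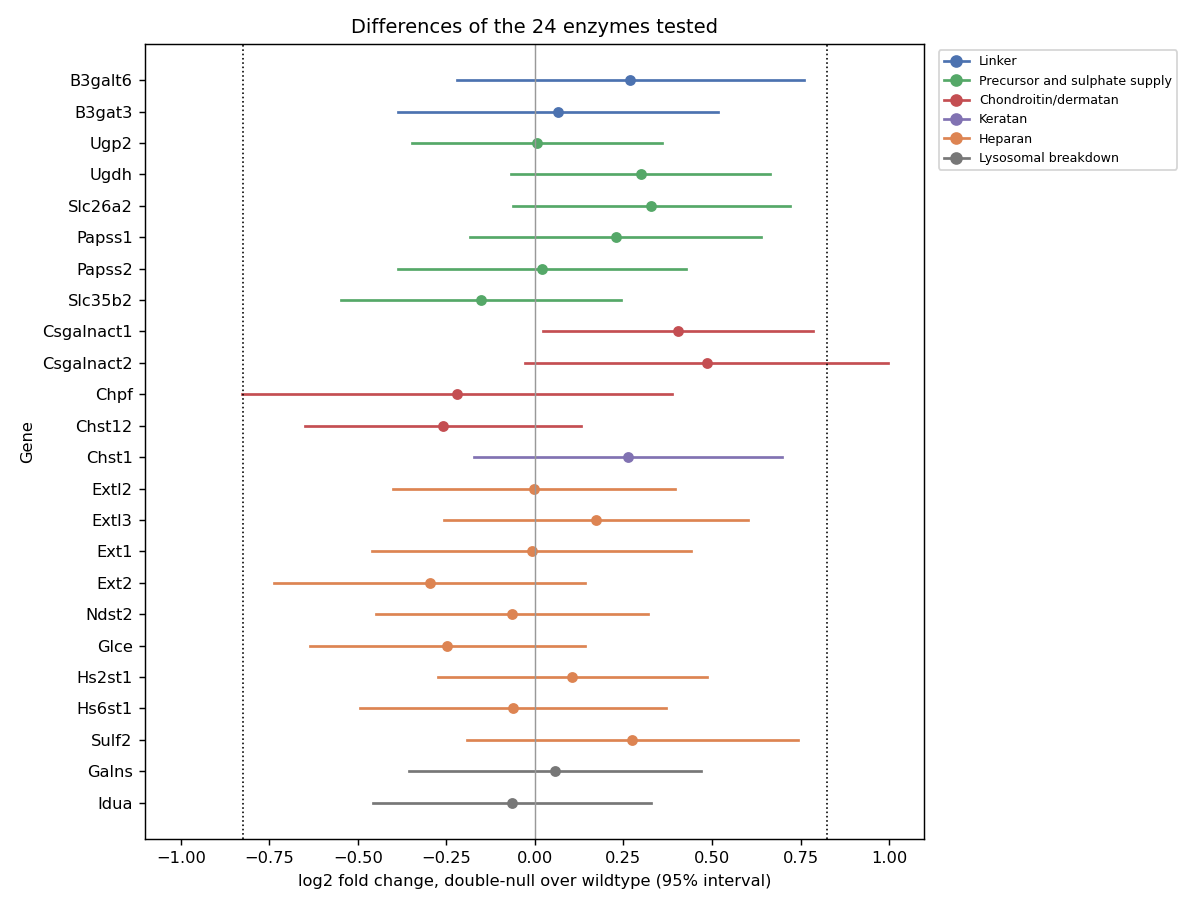
Fitted log2 fold change of double-null over wildtype (horizontal) with its 95% interval for the 24 tested genes (vertical), coloured by step; dotted lines mark 0.83, the smallest absolute change among the 9 genes called over all genes. The interval of Csgalnact1 alone leaves out 0, from 0.024 to 0.79, before any adjustment.

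Heparan sulphate genes gave values on both sides of 0. Among the 9 tested, 3 lay above 0 and 6 below, and the median was -0.0086. That median was 0.17 without wildtype pool 1, and -0.12 without wildtype pool 2 or without double-null pool 3. These repeat the contrasts within the tables, whose medians were 0.17 in type A and -0.12 in type B. Extl3, which adds the first N-acetylglucosamine and starts the chain, read 262 ± 12.8 and 292 ± 67.4, at 0.17 ± 0.20, and its second probe set, below the filter, was at -0.27. Extl2, a related transferase that acts on the linker, was at -0.0034 ± 0.18, and its second probe set was at 0.38. Ext1 and Ext2 encode the polymerase, and loss of one copy of either causes multiple osteochondromas in humans. Ext1 read 238 and 241 in wildtype and 197, 163 and 326 in double-null pools, so the double-null values lay on both sides of the wildtype values, at -0.0086 ± 0.21. Ext2 read 223 and 239 in wildtype and 159, 238 and 158 in double-null pools. Double-null pools 1 and 3 were low and pool 2 lay within the wildtype range. Its difference, the most negative of the 24, was -0.30 ± 0.20 (interval -0.74 to 0.14, adjusted p = 0.90); it was -0.53 in type A and -0.12 in type B.

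The heparan modifying enzymes act in order on the growing chain. Ndst2, which swaps acetyl for sulphate on glucosamine, read 232 ± 37.1 and 218 ± 5.39, at -0.065 ± 0.18. Glce, the epimerase that makes iduronic acid in heparan, read 252 and 233 in wildtype and 183, 180 and 219 in double-null pools. All double-null pools lay below both wildtype pools, at -0.25 ± 0.18 (interval -0.63 to 0.14, adjusted p = 0.93), and its second probe set, below the filter, was at 0.26. Hs2st1, which sulphates the uronic acid, was at 0.11 ± 0.17, with -0.18 on a second probe set above the filter. Another probe set of Hs2st1, below the filter, was at -0.25, and the mean over its probe sets gave -0.11. Hs6st1, which sulphates glucosamine, read 444 ± 108 and 422 ± 41.8, at -0.061 ± 0.20. Hs3st1, which adds the sulphate needed for antithrombin binding, lay below the filter. Hs3st1 read 52.9 and 70.0 in wildtype and 73.3, 79.0 and 79.8 in double-null pools. Its groups did not overlap, and the fit without the filter gave 0.30 ± 0.21 (limma unadjusted p = 0.19, adjusted p = 0.91). Sulf2, an extracellular sulphatase that trims heparan chains after secretion, read 241 and 206 in wildtype and 348, 211 and 281 in double-null pools, which overlapped, at 0.28 ± 0.21.

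The lysosomal genes tested gave values near 0. Galns, which removes sulphate from keratan and chondroitin sulphate, read 269 ± 27.6 and 274 ± 50.7, at 0.057 ± 0.19. Idua, which cleaves iduronic acid from dermatan and heparan sulphate, read 229 ± 34.0 and 225 ± 40.7, at -0.064 ± 0.18, with 0.069 on a second probe set. Ids, the iduronate sulphatase whose loss causes Hunter syndrome, lay below the filter at 74.0 ± 2.67 and 65.2 ± 7.47. The fit without the filter gave -0.091 ± 0.20. Its other probe sets, all below the filter, ranged from -0.59 to 0.14. The one at -0.59 read from 1.32 to 36.6 (limma over all probe sets, unadjusted p = 0.0063, adjusted p = 0.71). Ids lies within 10 Mb of Bgn on the X chromosome, and the part of neighbouring DNA in its signal was not tested. Of the 6 tested genes with more than 1 probe set above the filter, Ugp2, Papss2, Extl2, Hs2st1 and Idua had probe sets of both signs, and Slc26a2 had 1 sign.

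Groups that did not overlap after normalisation were few among these enzymes, with shares near those of all genes. Papss1, Csgalnact1 and Chst1 lay above both wildtype pools in every double-null pool, 3 of 24, beside 9.45% of all genes. Chst12 and Glce lay below both, 2 of 24, beside 10.2%. The 5 were spread over 4 of the 6 steps.

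The 2 tables were also taken apart, with 1 wildtype pool in each and so with no test inside a table. The median difference of the 24 genes in the type A table was 0.24, beside -0.016 over all genes. In the type B table the same median was -0.019, beside -0.0075. The median thus had no common sign, and leaving out wildtype pool 1, which leaves the contrast to array type A, gave 0.24. On array type A, B3galt6 (0.65), Chpf (0.61) and Chst1 (0.50) were at least 0.5 higher, beside 4.71% of all genes, and Ext2 (-0.53) was at least 0.5 lower, beside 3.91%. On array type B, Csgalnact2 (0.87) and Csgalnact1 (0.51) were at least 0.5 higher, beside 6.39%, and Chpf (-0.84) was at least 0.5 lower, beside 5.85%. Both tables gave a higher value for 9 of the 24, where 22.0% of all genes did, and a lower value for 4, where 25.3% did. The 9 were Ugdh, Slc26a2, Papss1, Csgalnact1, Chst1, Extl3, Hs2st1, Sulf2 and Galns, and the 4 were Chst12, Ext2, Glce and Idua. Each sign is that of the brightest probe set alone.

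The difference between the tables was tested as an interaction of genotype and array type, with 1 residual degree of freedom. By limma 0 of 7436 genes passed an adjusted p of 0.05. Chpf alone of the 24 had an unadjusted p under 0.05, where 6.29% of all genes did, at -1.45 for type B minus type A (limma unadjusted p = 0.0029, adjusted p = 0.79). Csgalnact2 was at 0.90 (unadjusted p = 0.057 by limma), Ext1 at -0.72 and Hs6st1 at -0.70.

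**Figure D3:**
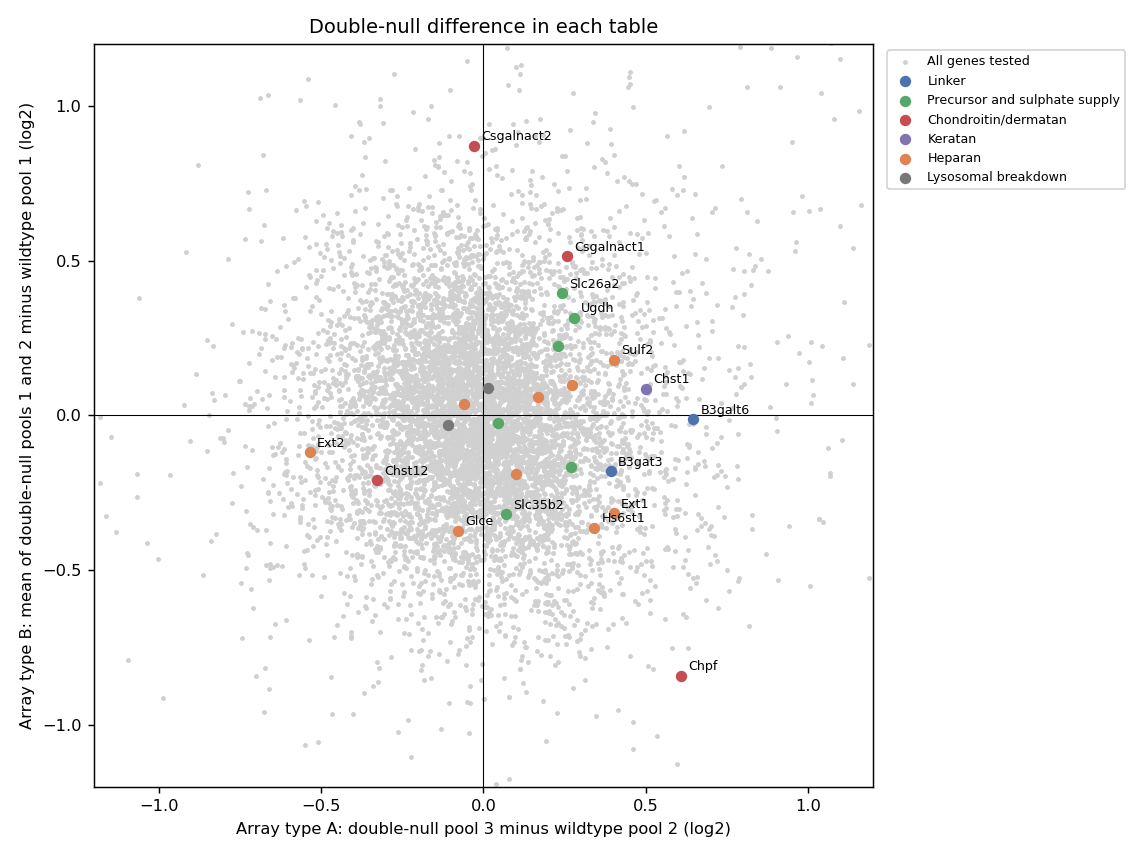
Double-null minus wildtype on the normalised log2 scale in array type A (horizontal) and array type B (vertical); grey points are all genes tested, some outside the axes, and coloured points are the 24 enzymes by step. Chpf lies at 0.61 and -0.84, Csgalnact2 at -0.030 and 0.87, and the other enzymes lie nearer the centre.

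**Figure D4:**
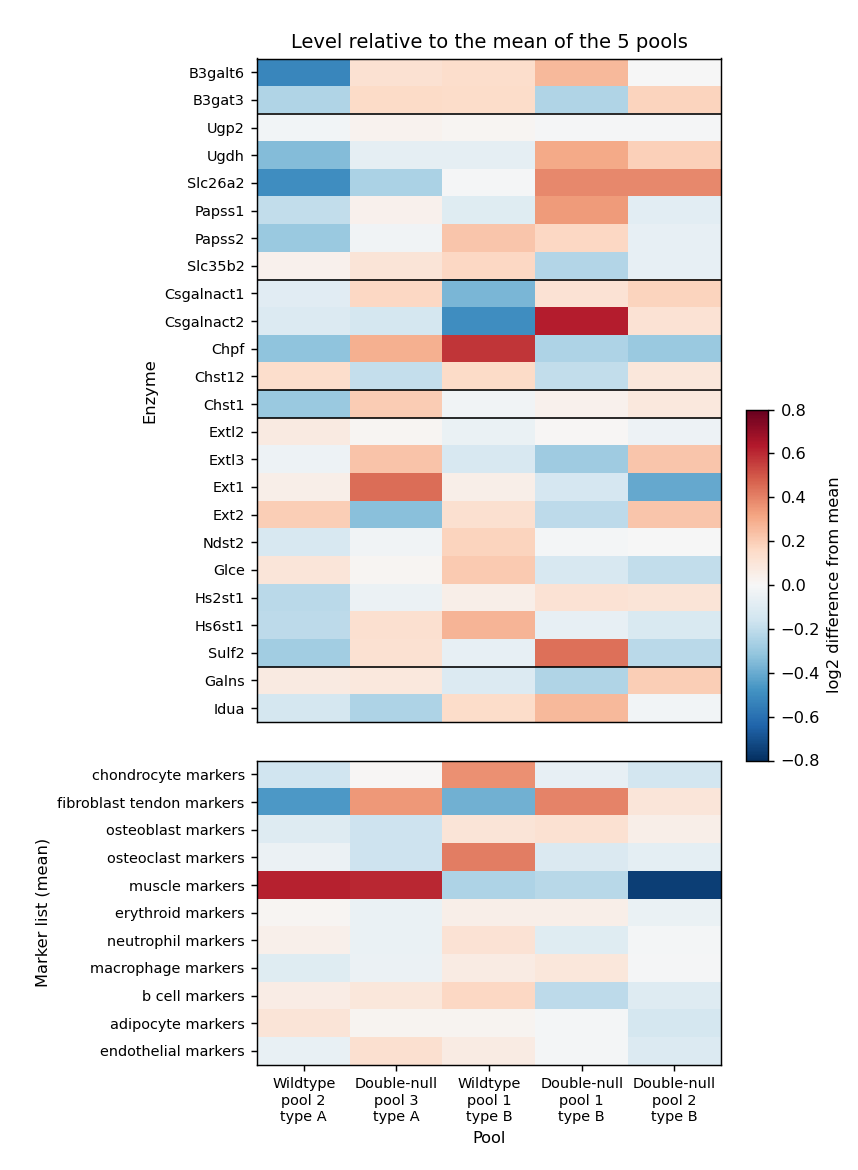
Normalised log2 level of each tested enzyme (upper rows, by step) and mean over each cell type marker list (lower rows) in the 5 pools, as the difference from the mean of the 5 pools; red is higher and blue lower. Chpf is highest in wildtype pool 1, as are the chondrocyte (0.36), osteoclast (0.41), B cell (0.17) and neutrophil (0.12) marker means. The other lists are highest in other pools. Muscle markers separate the type A pools (0.62 and 0.60) from the type B pools (-0.76 to -0.22).

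Other genes of the pathway, from a list of 52, were measured in 34 and tested in 20. None of the 20 passed the adjusted threshold in either direction, and their median was 0.042, 11 of them above 0 and 9 below. Sumf1, which encodes the enzyme that activates all sulphatases, read 97.2 and 132 in wildtype and 148, 178 and 189 in double-null pools. Every double-null pool lay above both wildtype pools, at 0.57 ± 0.19 (limma unadjusted p = 0.011, adjusted p = 0.58); it was 0.44 in the type A table and 0.68 in the type B one. It was the only one of the 20 at an unadjusted p under 0.05, beside 3.52% of all genes on the higher side, so this count is near the background. Hs6st2, which like Hs6st1 sulphates glucosamine in heparan, was below the filter and so not tested. Hs6st2 read 4.06 and 14.8 in wildtype and 17.4, 27.2 and 44.5 in double-null pools. Its groups were apart, but it read above the highest Bacillus control of the same array on 1 of 5 arrays, double-null pool 3.

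The promoters of the members were rich in G and C, as were those of the genes tested on these arrays. In the 250 bases before the first listed start, from RefSeq promoter sequences of GRCm38.p6 for the 31 members that have one there, the median GC content was 65.2%, beside 60% over 6074 genes tested on these arrays and 52.0% over all 27025 genes. The letters GGGCGG, searched on both strands, were in 67.7% of the members, 60.5% of the tested genes and 32.9% of all genes. The letters TATAAA, on both strands, were in 3.23%, 6.50% and 13.0%, and CCAAT, on both strands, in 29.0%, 36.1% and 34.5%. The promoters of Csgalnact2 and Ext2 are shown because their fitted differences were the most positive and the most negative among members with a promoter sequence. They are written 5′ to 3′ on the gene's minus strand, with each GGGCGG or its complement in capitals. Csgalnact2, with 4 such matches, is at chr6:118139141-118139390 of GRCm38.p6, and Ext2, with 0, at chr2:93822569-93822818.
Csgalnact2: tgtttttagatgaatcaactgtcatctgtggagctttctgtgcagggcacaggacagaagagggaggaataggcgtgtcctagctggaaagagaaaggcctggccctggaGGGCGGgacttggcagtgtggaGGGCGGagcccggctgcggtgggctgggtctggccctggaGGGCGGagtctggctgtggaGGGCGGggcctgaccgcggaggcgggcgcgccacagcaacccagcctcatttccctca
Ext2: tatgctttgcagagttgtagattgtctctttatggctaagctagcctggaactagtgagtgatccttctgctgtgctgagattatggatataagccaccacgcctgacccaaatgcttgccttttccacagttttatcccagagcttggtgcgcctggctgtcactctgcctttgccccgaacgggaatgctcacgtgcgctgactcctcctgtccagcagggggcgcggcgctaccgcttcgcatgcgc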

How the data were processed

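RNA was extracted with Trizol and RNeasy columns and labelled with biotin by in-vitro transcription, as the labels' protocols state. The files hold deposited linear signal intensities per probe set, made by the authors with MAS5 per the submitters' processing notes, with a scaling target not stated there. The 2% trimmed mean was 250.1 on each array. Each signal had 32 added before log2, and the 5 arrays were then quantile normalised together. Probe sets were named from the platform annotation, the same in both tables, with symbols updated through Entrez numbers to GRCm38.p6. Genes above the 40th percentile of mean level, a signal near 98.5, were tested with limma 3.58.1 in R 4.3.3 (array type as a term, intensity trend, two-sided, Benjamini-Hochberg over 7436 genes, 2 residual and 9.8 prior degrees of freedom). Background was judged on each array from the highest of 27 Bacillus control probe sets. That signal ran from 27.5 in double-null pool 3 to 63.5 in double-null pool 2. ± is SE beside a log2 fold change and SD (n = 2 wildtype, n = 3 double-null) beside a signal. Each array is 1 pool of 3 mice, and having 5 arrays bounds the precision.

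Members and lists were chosen with earlier results of these data known. Every measured member is named. The fixed rule gave values per pool to members at an unadjusted p under 0.05, or with groups apart by 0.5 or more, and other genes shown by pool were picked after their values were seen. Other pathway genes that were tested were named where groups were apart by 0.5 or more, and Hs6st2, not tested, is named because its groups were apart by as much. The planned comparison of protein sequences was not run. The fit was tested on simulated data. Alternatives were other scalings, added constants, filters, terms and probe set rules, and each array left out.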

Additional observations from a re-analysis of the deposited data

How the results depend on the processing

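None of the enzymes passed the adjusted threshold under any of the 16 alternatives in which it was fitted, and the smallest adjusted p over them was 0.37 (limma, with array type B alone and without wildtype pool 2). Signs were less settled: 8 of the 24 genes kept 1 sign throughout (Ugdh, Slc26a2, Papss1, Csgalnact1, Chst12, Chst1, Ext2 and Sulf2) and 16 changed it at least once. The median of the members, 0.038, was 0.071 with median centring, 0.061 over 32 members with no filter, -0.019 with array type B alone and 0.0056 with the mean over probe sets, and it ran from -0.019 to 0.24 without single pools, with the highest value without wildtype pool 1. With that pool gone, only the type A contrast remained, and the type A median was 0.24. The low end came from fits in which only the type B contrast remained, where the median was -0.019. The cause of the difference between the tables was not tested. Of all genes, 9 were called, 6 higher and 3 lower. There were 5 with the deposited scaling (2 higher and 3 lower), 6 with median centring (3 and 3), 5 without the intensity trend, 4 without the array type term, 2 without the filter and 2 with array type B alone. Without single pools 2 to 50 were called, the most without double-null pool 2. With the replicate number as a block in place of array type, 0 genes were called by limma and 2 members had an unadjusted p under 0.05. The deviations of same-numbered pools from their group means had r across genes of 0.0048 for number 1 and -0.18 for number 2. These values cannot show whether same-numbered pools were paired. The deviations of the 2 wildtype pools mirror each other, and the pools numbered 2 were on different array types. Signal near the Bacillus controls limits Xylt2, Chst3, Chst7 and B4galt7.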
